A study of Danio rerio with 14 samples.

Results

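The regions described here are the H2A.Z peaks that lie on alternate-locus sequences of the zebrafish genome. They are all rows of the 2 peak tables whose sequence name holds "_alt", 4628 of 29854 peaks (15.5%) in the table of 5-AzaC against DMSO and 4616 of 28988 (15.9%) in the table of TDCIPP against DMSO. They were set against the 24755 and 23935 peaks on the assembled chromosomes 1 to 25. H2A.Z was mapped by CUT&Tag, in which an antibody brings a transposase to the protein it binds and the DNA around it is cut and tagged. Embryos came from AB/Tuebingen wild-type adults, were kept at around 50 per well and were collected at 6 hours after fertilization, and around 10000 cells went into each library. The groups were DMSO at 0.1%, the solvent control (3 samples), 5-AzaC at 100 µM given from the 1-cell stage onwards (3 samples), and 3.12 µM TDCIPP from 0.75 hours, at the 2-cell stage (2 samples). All 3 groups share the strain and the stage. TDCIPP belongs to the organophosphate flame retardants. 5-AzaC, or 5-azacytidine, is built into nucleic acids in place of cytidine and traps DNA methyltransferases. Another 6 of the 14 samples, from embryos overexpressing H2A.Z, are not analysed here. The labels do not say whether samples of a group came from separate clutches, so the deposited p-values measure the spread between these samples, which may be technical.

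H2A.Z is a variant of histone H2A that replaces it in some nucleosomes, mostly around active and poised promoters and at enhancers. In early zebrafish embryos it is known to mark sites that stay free of DNA methylation, before and while the embryo's own genome is switched on. An alternate locus is a further version of a stretch of chromosome, kept in an assembly beside the main sequence because the sequenced fish differ there. Much of an alternate locus resembles the matching stretch of its parent chromosome, so a read can align to both. How such reads were placed is not given in the sources used here, and their part in the levels below was not tested.

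Each table gives 1 level per group and peak, on the log2 scale of mean normalised reads, with the authors' log2 change, p-value and FDR. No value of a single sample is held, so no SD, n or interval can be given for a peak. For the same reason, differences between alternate-locus and assembled peaks are described below by medians and shares, and were not tested. A peak is called lower or higher at a deposited FDR under 0.05. An FDR of 1 stands at 1865 alternate-locus peaks for 5-AzaC and at 2165 for TDCIPP, which left 59.7% and 53.1% of them with an FDR under 1. The same held for 67.0% and 59.3% of all peaks. The FDR of 1 followed the mean level over both groups: it stood at all peaks with a mean level under 2.84 in the 5-AzaC table and under 3.26 in the TDCIPP table, and at 1 and 5 peaks above these. A peak weak in DMSO could therefore be called only if its treated level was high, and a peak could lose its call because its treated level was low, so the calls depend in part on the direction of change. Among alternate-locus peaks with an FDR of 1, the deposited p was under 0.05 at 154 lower and 2 higher for 5-AzaC, and at 124 lower and 73 higher for TDCIPP. In which samples a peak was found is not given either. A peak weak in DMSO may have entered through the treated samples alone, and its change would then lean upward by selection.

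In control embryos, peaks on alternate loci were weaker and slightly narrower than those on the chromosomes. Their median DMSO level was 3.44 (quartiles 2.68 and 4.19) in the 5-AzaC table, against 3.69 (2.83 and 4.52) for assembled peaks. In the TDCIPP table the medians were 3.41 and 3.70. Median width was 736 bp against 788 bp, and 739 bp against 774 bp. The gap in level remained at like width: against assembled peaks in the same one of 10 classes of width, the median difference was -0.17, and for the TDCIPP table -0.23. On the linear scale, the mean DMSO level was 14.8 normalised reads per alternate-locus peak and 18.6 per assembled peak in the 5-AzaC table.

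In proportion, the shortfall was larger among strong peaks. A DMSO level of at least 5 was reached by 370 alternate-locus peaks (7.99%) and 3549 assembled peaks (14.3%) of the 5-AzaC table. At a level of at least 6 the counts were 51 (1.10%) and 659 (2.66%), and at a level of at least 7 they were 5 (0.108%) and 99 (0.400%). The top of the range was nonetheless shared, with the strongest alternate-locus peak at 10.34 and the strongest assembled peak at 10.37. At the weak end, the lowest DMSO levels were -0.22 and -0.41. Peaks under 500 bp made up 20.5% of alternate-locus peaks and 17.7% of assembled ones, and peaks of at least 2000 bp 1.99% and 2.36%.

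**Figure D1:**
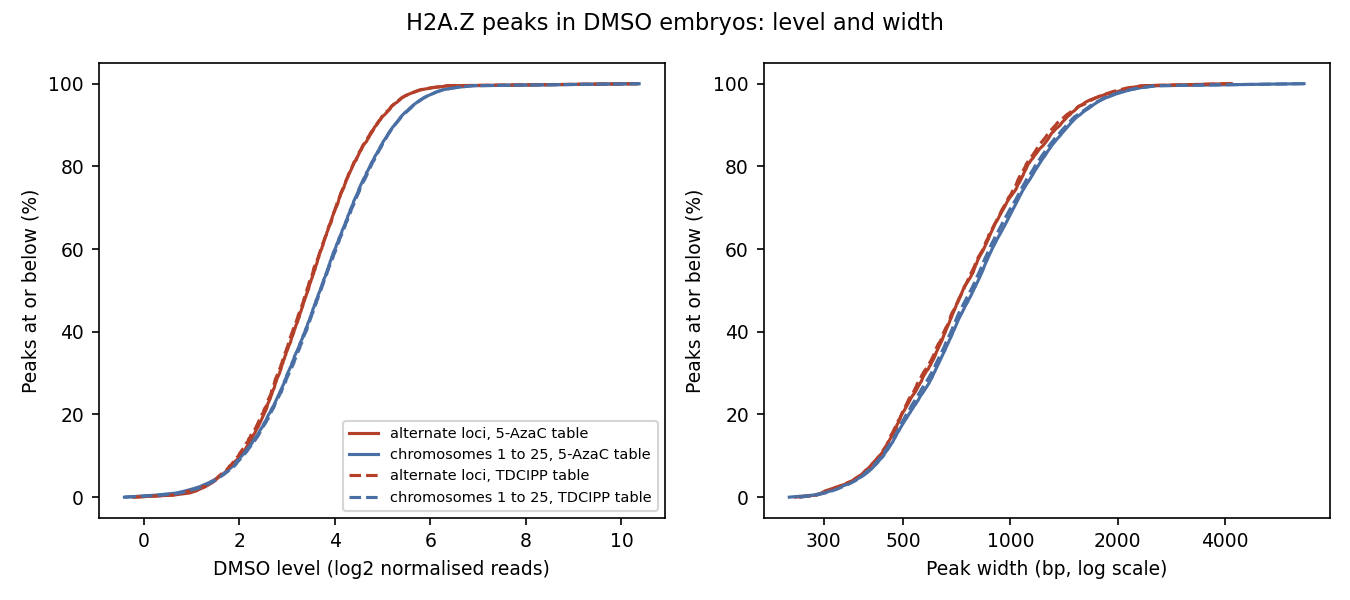
Cumulative share of H2A.Z peaks (percent, vertical axis) by DMSO level in log2 normalised reads (left) and by width in bp on a log scale (right), for alternate loci (red) and chromosomes 1 to 25 (blue), with solid lines for the 5-AzaC table and dashed lines for the TDCIPP table. The red curves lie to the left of the blue ones over most of the range, with median levels of 3.44 and 3.69 in the 5-AzaC table.

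After 5-AzaC, the H2A.Z level on alternate loci was below that in DMSO at most peaks, and by more than on the chromosomes. The median level went from 3.44 in DMSO to 2.65 after 5-AzaC, and the median log2 change by the authors' deposited table was -0.79 (quartiles -1.14 and -0.42), against -0.68 (-1.01 and -0.30) for assembled peaks. Against assembled peaks in the same one of 10 classes of DMSO level and 4 of width, alternate-locus peaks lay a median of 0.16 further down (difference -0.16, quartiles -0.48 and 0.14). Summed over the 3.87 Mb they covered, the linear signal after 5-AzaC was 0.582 of the DMSO signal, with means of 8.62 and 14.8 normalised reads per peak. Over the 21.9 Mb of assembled peaks the ratio was 0.659, with means of 12.3 and 18.6. How libraries were scaled is not given in the sources used here. Its part in a change shared by most peaks, here and for TDCIPP below, was not tested.

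The calls had the same direction. Of the 4628 peaks, 548 were called lower (11.8%), where 12.5% of all peaks of the table were, and 12.7% of assembled peaks. Assembled peaks weighted to the same levels and widths gave 8.97%. So the share of lower calls was near the background as it stands and above it at like level and width. Only 1 alternate-locus peak was called higher (0.0216%), where 0.301% of all peaks and 0.311% of assembled peaks were, and the weighted share of assembled peaks was 0.226%. At a deposited p under 0.05 without adjustment, 4 alternate-locus peaks were higher (0.0864%), where 1.02% of all peaks and 1.06% of assembled peaks were. These shares without adjustment do not pass through the limit on mean level. In the other direction, without adjustment, 1321 were lower (28.5%), where 28.0% of all peaks were, and 22.4% of assembled peaks at like level and width.

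Large increases were scarce on alternate loci after 5-AzaC. Peaks weak in DMSO may have entered through the 5-AzaC samples alone, so the shares of increases depend in part on that selection. The log2 change by the authors' deposited table was above 1 at 35 alternate-locus peaks (0.756%), where it was at 2.25% of all peaks and 2.43% of assembled peaks at like level and width. It was above 0 at 465 (10.0%), where it was at 13.8% of all peaks. It was below -1 at 1567 (33.9%), where it was at 26.5% of all peaks and 23.9% of assembled peaks at like level and width. The 548 lower calls had a median DMSO level of 4.83, a median width of 1088 bp and a median deposited change of -1.37 (log2, from the authors' deposited table), against 5.13, 1147 bp and -1.23 for the lower calls on the chromosomes.

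The gap to the chromosomes held across the range of DMSO levels. Peaks in the weakest class of DMSO level may have entered through the treated samples alone. The part of this selection in the gap there was not tested. In that class the authors' deposited table gave a median log2 change of 0.04 on alternate loci and 0.33 on chromosomes. In the fifth class it was -0.82 and -0.64, and in the strongest -1.03 and -0.90. Lower calls made up 56.8% of the alternate-locus peaks in the strongest class and 47.8% of the assembled ones. One class below they made up 27.0% and 21.8%, and in the eighth class 18.3% and 10.4%. By width, the medians for the narrowest of 4 classes (250 to 536 bp) were -0.62 and -0.43, and for the widest (1045 to 4168 bp) -0.91 and -0.81.

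After TDCIPP the order was the other way round: the H2A.Z level on alternate loci was again below that in DMSO at most peaks, but by less than on the chromosomes. The median level went from 3.41 in DMSO to 3.11 after TDCIPP, and the median log2 change by the authors' deposited table was -0.38 (quartiles -0.88 and 0.27), against -0.56 (-1.02 and 0.05) for assembled peaks. At like DMSO level and width, alternate-locus peaks lay a median of 0.10 above assembled peaks (quartiles -0.40 and 0.61). The summed linear signal over 3.82 Mb was 0.871 of the DMSO signal, with means of 12.8 and 14.7 normalised reads per peak, and over the 20.9 Mb of assembled peaks it was 0.763, with means of 14.4 and 18.9.

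Lower calls made up a smaller share than on the chromosomes, and higher calls a somewhat larger one. After TDCIPP, 159 alternate-locus peaks were called lower (3.44%), where 5.81% of all peaks and 6.31% of assembled peaks were. Weighted to the same levels and widths, assembled peaks gave 4.27%. Higher calls numbered 73 (1.58%), where 1.21% of all peaks and 1.14% of assembled peaks were, and 1.00% at like level and width. Of these 73, 13 lay on a single sequence, chr8_KZ115273v1_alt, and 60 were left without it, so part of the excess rests on that sequence. With calls within 10 kb counted once, 56 higher and 156 lower remained, without a like count for assembled peaks. At a deposited p under 0.05 without adjustment, 557 were lower (12.1%), where 18.2% of all peaks were, and 254 were higher (5.50%), where 4.11% of all peaks were. Assembled peaks at like level and width gave 15.1% lower and 3.95% higher.

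The sizes of change followed the same order. The log2 change by the authors' deposited table was above 0 at 1564 alternate-locus peaks (33.9%), where it was at 27.9% of all peaks, and at 29.4% of assembled peaks at like level and width. It was above 1 at 427 (9.25%), where it was at 7.65% of all peaks, and below -1 at 934 (20.2%), where it was at 24.7% of all peaks. Assembled peaks at like level and width gave 8.20% above 1 and 23.3% below -1. The lower calls had a median DMSO level of 4.87, a median width of 1103 bp and a median deposited change of -1.73 (log2, from the authors' deposited table). The higher calls had a median DMSO level of 3.04, a median width of 739 bp and a median deposited change of 1.72 (log2, from the authors' deposited table). The limit on mean level lets weak DMSO peaks be called in the higher direction alone, so the levels of lower and higher calls cannot be compared. Higher calls on the chromosomes had a median DMSO level of 4.10 and a median width of 731 bp.

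Here the gap was small among weak peaks and uneven among the others. In the weakest class, where peaks may have entered through the TDCIPP samples alone, the authors' deposited table gave a median log2 change of 0.66 on alternate loci and 0.65 on chromosomes. In the fifth class it was -0.40 and -0.47, in the eighth -0.64 and -0.70, in the ninth -0.59 and -0.83, and in the strongest -0.75 and -0.89. Lower calls made up 18.1% of alternate-locus peaks and 24.9% of assembled peaks in the strongest class, and higher calls 3.71% and 2.54%. Of the 17 higher calls on alternate loci in that class, 13 lay on chr8_KZ115273v1_alt. The larger share of higher calls there therefore rests mostly on 1 sequence, and the share without it was not taken. The widest of 4 classes (1031 to 4149 bp) had medians of -0.50 and -0.71. Within classes of level and width, the interquartile range of change averaged 0.99 on alternate loci and 0.95 on chromosomes, and for 5-AzaC 0.64 and 0.67, so that the spread between peaks was several times the gap between the classes of sequence.

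**Figure D2:**
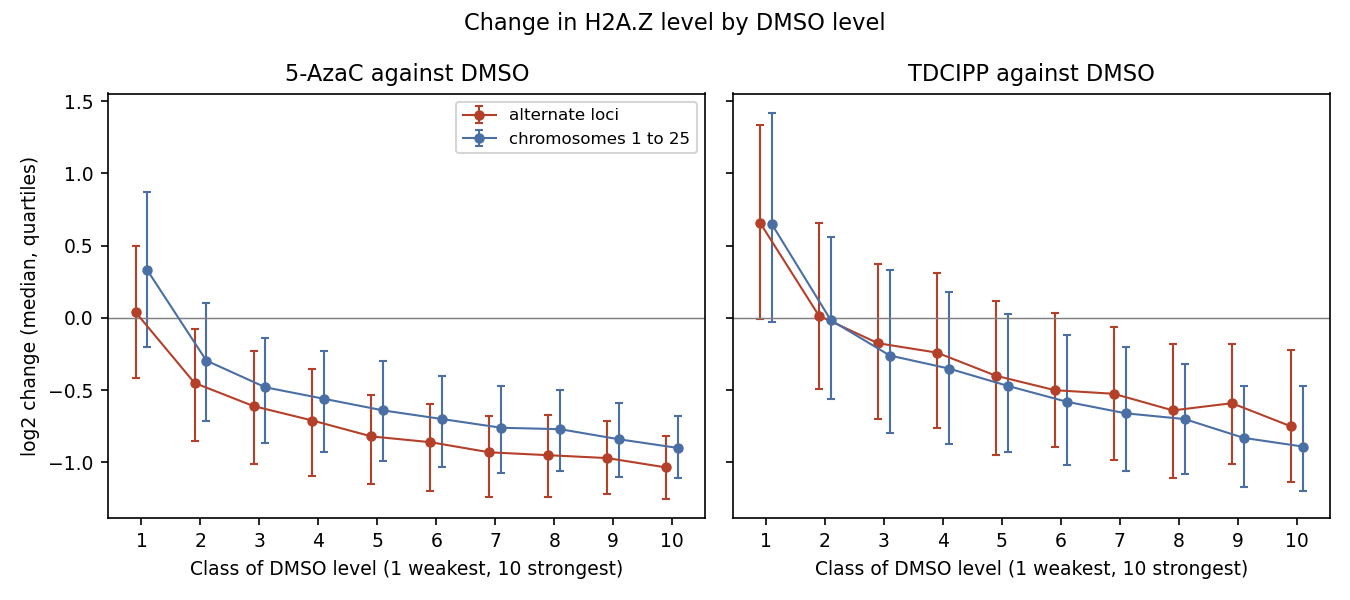
Median log2 change (points) with quartiles (bars) in 10 classes of DMSO level, from weakest to strongest, for alternate loci (red) and chromosomes 1 to 25 (blue), after 5-AzaC (left) and TDCIPP (right). The red medians lie below the blue ones in every class after 5-AzaC and above them after TDCIPP, by 0.01 in the weakest class and 0.14 in the strongest.

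Both comparisons subtract the same DMSO libraries, so the treated levels were also set side by side without DMSO. The tables held 784 alternate-locus peaks with identical coordinates, all 784 with the same DMSO level in both. Their median log2 changes were -1.01 after 5-AzaC and -0.72 after TDCIPP, against -0.79 and -0.38 for all alternate-locus peaks, so they do not stand for the whole set. At these peaks the median level was 3.58 in DMSO, 2.57 after 5-AzaC and 2.88 after TDCIPP, and the TDCIPP level lay above the 5-AzaC level at 67.1% of them, by a median of 0.28 (quartiles -0.16 and 0.67). At the 4453 assembled peaks with identical coordinates the median difference was 0.01 (quartiles -0.31 and 0.36), and the TDCIPP level was above at 50.3%. Against assembled peaks in the same one of 4 classes of DMSO level and 2 of width, alternate-locus peaks lay 0.25 higher in this difference. Taken by chromosome, the difference between treated levels was higher on alternate loci than on assembled peaks for 23 of 25 chromosomes. Among 4043 alternate-locus peaks matched by overlap the median difference was 0.35, against 0.04 for assembled peaks. Peaks matched by overlap can differ between the tables in extent and in DMSO level. The part of this in the difference was not tested. A match in the other table was found for 87.4% (5-AzaC table) and 87.6% (TDCIPP table) of alternate-locus peaks, against 87.8% and 90.8% of assembled peaks.

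Every chromosome from 1 to 25 had alternate loci with peaks, on 871 sequences (5-AzaC table) and 878 sequences (TDCIPP table). The numbers were uneven. In the 5-AzaC table chromosome 5 had the most, with 441 peaks on 73 sequences, or 23.9% of all peaks named for that chromosome. Chromosome 6 followed with 314 peaks on 65 sequences, chromosome 1 with 288 on 60, chromosome 10 with 240 on 41 and chromosome 7 with 239 on 48. Chromosome 19 had the fewest, 49 on 9 sequences (4.82%). The median DMSO level of alternate loci was under that of the parent chromosome for 24 of 25 chromosomes in both tables. The exception was chromosome 25, at 3.65 and 3.64 in the 5-AzaC table. The widest gaps were on chromosomes 3 (3.27 and 3.76) and 22 (3.08 and 3.57).

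After 5-AzaC the median change of alternate loci lay below that of the parent chromosome on 25 of 25 chromosomes, by 0.02 to 0.26. It was also below assembled peaks at like level and width on all 25, by 0.05 to 0.25. On chromosome 5 the authors' deposited table gave a median log2 change of -0.85 on alternate loci and -0.69 on the chromosome, with 57 lower calls (12.9%) against 12.0% of its assembled peaks. On chromosome 6 the medians were -0.79 and -0.70, on chromosome 1 -0.78 and -0.68, on chromosome 10 -0.75 and -0.72, and on chromosome 7 -0.75 and -0.65. Chromosome 4, whose long arm is rich in repeats, had the widest gap between medians, at -0.78 on 92 alternate-locus peaks and -0.52 on 1145 assembled peaks. Lower calls made up 15.2% of the former (14 peaks) and 6.81% of the latter. Its alternate-locus median lay within the range of the other chromosomes (-0.88 to -0.72), and its assembled median lay above theirs (-0.72 to -0.65). Against assembled peaks of all chromosomes at like level and width its difference was -0.235, and the widest was -0.25 on chromosome 11.

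After TDCIPP the median change of alternate loci lay above that of the parent chromosome on 22 of 25 chromosomes. The exceptions were chromosomes 4 (-0.41 and -0.33), 13 (-0.56 and -0.53) and 16 (-0.64 and -0.62). On chromosome 4 the difference at like level and width was 0.09, with assembled peaks of all chromosomes as the reference. The widest gaps were on chromosome 22, with medians of -0.10 on 167 alternate-locus peaks and -0.51 on 834 assembled peaks, and on chromosome 1, with -0.21 and -0.54. On chromosomes 5, 6, 10 and 7 the medians on alternate loci were -0.37, -0.32, -0.30 and -0.50, against -0.56, -0.54, -0.56 and -0.54 on the chromosomes. With that reference, the difference at like level and width was above 0 on 20 of 25 chromosomes. It ranged from -0.10 on chromosome 12 to 0.25 on chromosomes 1 and 22. Higher calls were most frequent on the alternate loci of chromosome 8, at 17 of 207 peaks (8.21%, against 3.51% of its assembled peaks). Of these 17, 13 lay on the sequence chr8_KZ115273v1_alt, and without it 4 of 189 peaks (2.12%) were called higher. On chromosome 15 they were 3 of 137 (2.19%, against 6.82%), and lower calls on chromosome 13 were 15 of 164 (9.15%, against 7.45%).

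**Figure D3:**
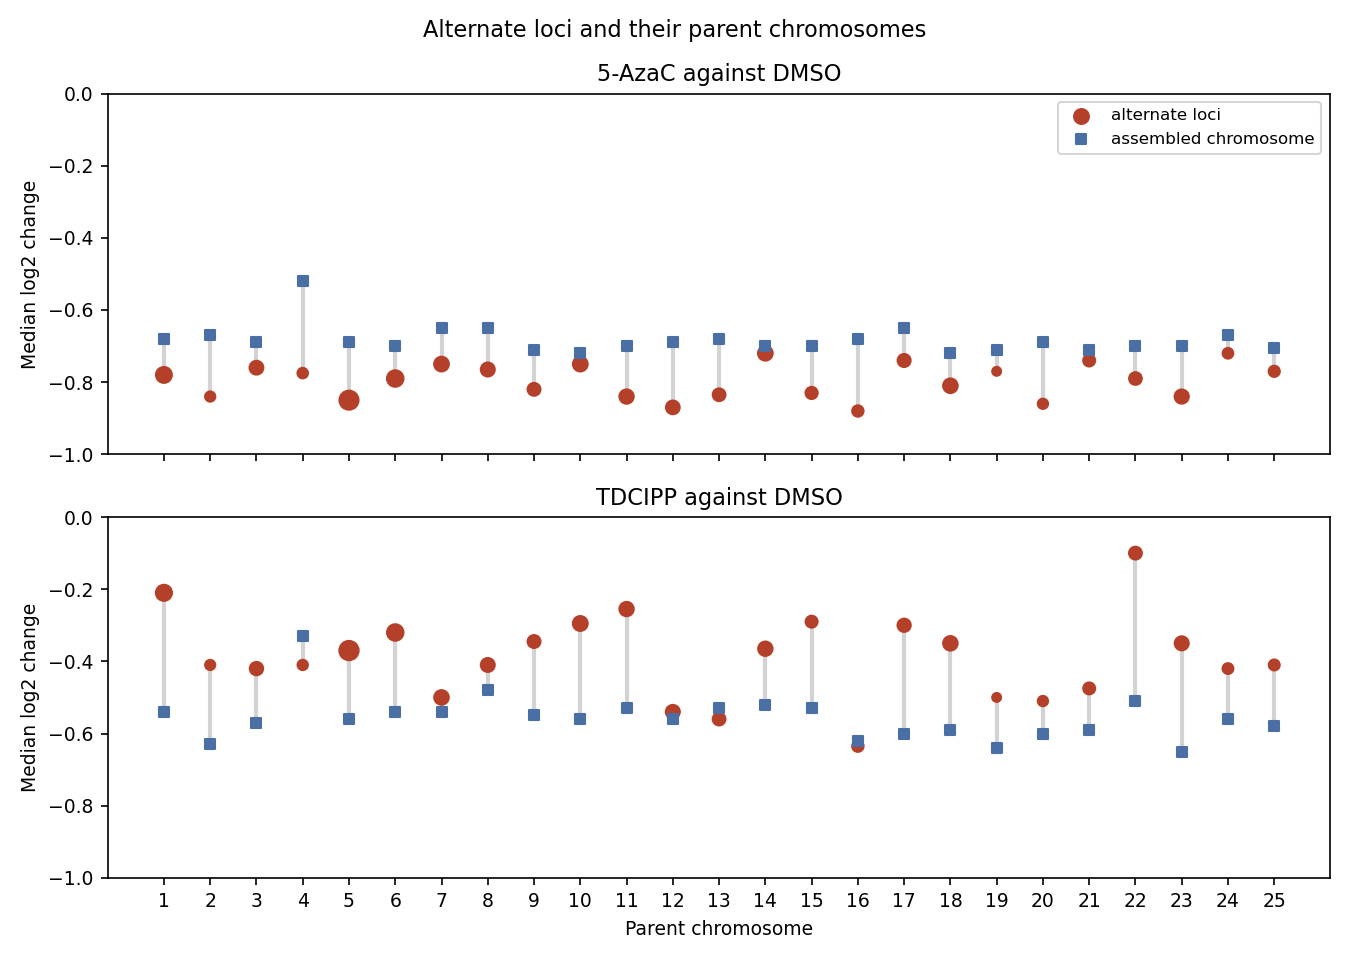
Median log2 change of alternate-locus peaks (red circles, larger with more peaks) and of assembled peaks (blue squares) for each of the 25 parent chromosomes, after 5-AzaC (top) and TDCIPP (bottom). Red lies below blue on all 25 chromosomes after 5-AzaC and above it on 22 after TDCIPP, with the widest gap on chromosome 4 in the first (-0.78 and -0.52) and on chromosome 22 in the second (-0.10 and -0.51).

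Single alternate-locus sequences held few peaks, a median of 4 and at most 27 (5-AzaC table) or 25 (TDCIPP table), and 93 and 91 sequences held 1 peak. The farthest peak on a sequence ended at a median of 257 kb in the 5-AzaC table and at most at 908 kb. The 548 lower calls of 5-AzaC were spread over 356 sequences, of which 232 held 1 call. The 159 lower calls of TDCIPP lay on 129 sequences, of which 106 held 1 call. Its 73 higher calls lay on 44 sequences, of which 30 held 1, and 5 sequences held calls in both directions. Peaks that start in the first 10 kb of a sequence (171 in the 5-AzaC table) had a median difference at like level and width of -0.19, against -0.16 for peaks farther in. After TDCIPP, 166 such peaks had a median of 0.24, against 0.10.

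To see how sequences differed from each other, those with at least 5 peaks were compared with blocks of 260 kb of the assembled chromosomes with at least 5 peaks, each by its median change at like level and width. After 5-AzaC the 423 sequences ran from -0.87 to 0.46 with an SD of 0.22 between sequences, and the 2442 blocks from -1.02 to 2.34 with an SD of 0.27. Of the sequences, 29 (6.86%) lay under -0.5 and 0 above 0.5, and of the blocks 45 (1.84%) and 63 (2.58%). Of the variance of single peaks in change at like level and width, 3.89% lay between sequences (3453 peaks), and 10.6% between blocks on the chromosomes. After TDCIPP the 422 sequences ran from -1.24 to 2.24 with an SD of 0.41, and the 2315 blocks from -1.20 to 2.68 with an SD of 0.38. Of the sequences, 54 (12.8%) lay above 0.5 and 25 (5.92%) under -0.5, and of the blocks 182 (7.86%) and 140 (6.05%). The share of variance between sequences was 13.4%, or 11.5% without chr8_KZ115273v1_alt, and 14.4% between blocks. Before any matching, the median log2 change by the authors' deposited table was above 0 for 72 of the 422 sequences after TDCIPP (17.1%, against 9.68% of blocks) and for 2 of the 423 after 5-AzaC (0.473%, against 3.11%).

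**Figure D4:**
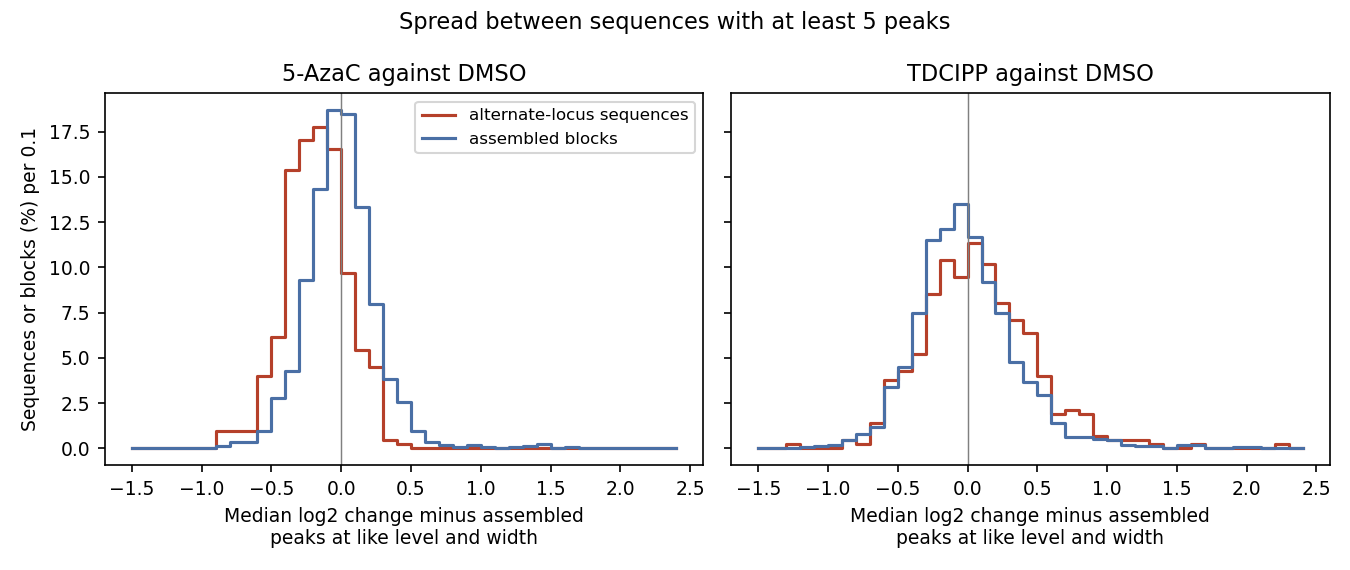
Distribution (percent per 0.1) of the median log2 change minus that of assembled peaks at like level and width, for alternate-locus sequences (red) and 260 kb blocks of the chromosomes (blue) with at least 5 peaks, after 5-AzaC (left) and TDCIPP (right). The red curve is shifted to lower values after 5-AzaC (median -0.16) and reaches further above 0.5 after TDCIPP (12.8% of sequences against 7.86% of blocks).

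The sequence with the most higher calls after TDCIPP was chr8_KZ115273v1_alt, an alternate locus of chromosome 8 with mostly strong peaks. It held 18 peaks of the TDCIPP table between 22658 and 252021, with DMSO levels from 4.65 to 7.64 (median 6.52) and TDCIPP levels with a median of 7.90. The log2 change by the authors' deposited table was above 0 at 15 of the 18, with a median of 1.33, and 13 were called higher. The smallest FDR was at the peak from 164249 to 164994, with a DMSO level of 5.75, a TDCIPP level of 7.55, log2 change 1.80 and FDR 4.61e-05 by the authors' deposited table. The 3 peaks with the lowest DMSO levels had changes below 0, from 38632 to 39802 (5.26 and 4.81), from 61875 to 63033 (5.37 and 4.79) and from 140606 to 141645 (4.65 and 3.63), and none of these was called. After 5-AzaC the same sequence had 19 peaks, all with a log2 change below 0 (median -0.56, from -1.03 to -0.14 in the authors' deposited table), of which 3 were called lower. Some neighbours among these 19 peaks stood at near-even steps, starting at 164256, 168969, 173464, 178139 and 182931. The higher calls on this sequence after TDCIPP may therefore not all be separate events. Without this sequence the higher calls on alternate loci after TDCIPP numbered 60, and the median difference at like level and width was still 0.10.

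Next among higher calls came chr21_KZ115626v1_alt, with 4 of 13 peaks called higher and 1 lower after TDCIPP, at levels with a median of 3.32 in DMSO and 4.40 after TDCIPP. In the 5-AzaC table its 10 peaks all lay below 0, with a median deposited change of -0.90 (log2, from the authors' deposited table). The 4 higher calls on chr21_KZ115626v1_alt were neighbours at near-even steps, starting at 43547, 48150, 52744 and 57378, with TDCIPP levels of 4.43, 4.40, 4.58 and 4.97. They may therefore not be separate events. Whether they lie in repeated sequence was not tested. No peak of the 5-AzaC table overlapped those starting at 48150, 52744 and 57378. The 10 peaks of that table therefore do not cover them, and they may have entered through the TDCIPP samples alone. On chr1_KZ115030v1_alt, 13 of 15 peaks had a change above 0 after TDCIPP, with a median log2 change of 1.81 by the authors' deposited table, median levels of 2.52 in DMSO and 4.29 after TDCIPP, and 3 higher calls. After 5-AzaC its 13 peaks had a median log2 change of -0.50 by the authors' deposited table. No peak of the 5-AzaC table overlapped the higher calls starting at 3780 and 33638, with DMSO levels of 2.43 and 2.22. These may have entered through the TDCIPP samples alone, and the medians are over different sets of peaks. Neighbours starting at 19964, 23976, 29264, 33638 and 37691 stood at similar steps and may likewise not be separate events.

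Lower calls were most numerous on chr12_KZ114926v1_alt in both tables. It held 8 among 24 peaks after 5-AzaC (median level 4.06 in DMSO and 3.02 after 5-AzaC) and 7 among 23 after TDCIPP (4.05 and 3.27). The median log2 changes in the authors' deposited table were -1.11 and -0.98, or 0.35 and 0.26 under assembled peaks at like level and width. On chr20_KZ115611v1_alt there were 6 lower calls among 18 peaks after 5-AzaC and 3 among 18 after TDCIPP. After 5-AzaC, chr11_KZ115359v1_alt had 6 among 12. After TDCIPP, chr23_KZ115696v1_alt had 3 among 8.

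The sequence with the most peaks in the 5-AzaC table was chr11_KZ115758v1_alt, with 27. Its median level was 2.94 in DMSO and 2.04 after 5-AzaC, and its median log2 change was -1.05 in the authors' deposited table, with 1 lower call. In the TDCIPP table its 24 peaks had median levels of 2.97 in DMSO and 3.32 after TDCIPP, and 13 of them a change above 0, with a median log2 change of 0.06 by the authors' deposited table. On chr13_KZ115402v1_alt there were median log2 changes of -0.98 after 5-AzaC (21 peaks) and 0.23 after TDCIPP (19 peaks) in the authors' deposited table. On chr8_KZ115269v1_alt, which had 25 peaks in each table, they were -0.62 and 0.74. On chr15_KZ114948v1_alt (19 and 21 peaks) they were -0.90 and -0.31, and on chr2_KZ115043v1_alt (19 and 20 peaks) -0.76 and -0.44. A run of peaks on chr8_KZ115269v1_alt in the TDCIPP table also stood at near-even steps, starting at 80908, 85405, 89671, 93725, 98178, 102237 and 106493. Their TDCIPP levels were from 5.56 to 5.91, and they may likewise not be separate events. No peak of the 5-AzaC table overlapped those starting at 80908, 85405 and 102237. The 25 peaks of each table on chr8_KZ115269v1_alt are therefore not the same set, and their medians are not over like peaks. After TDCIPP, 3 peaks of this sequence were called higher.

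**Figure D5:**
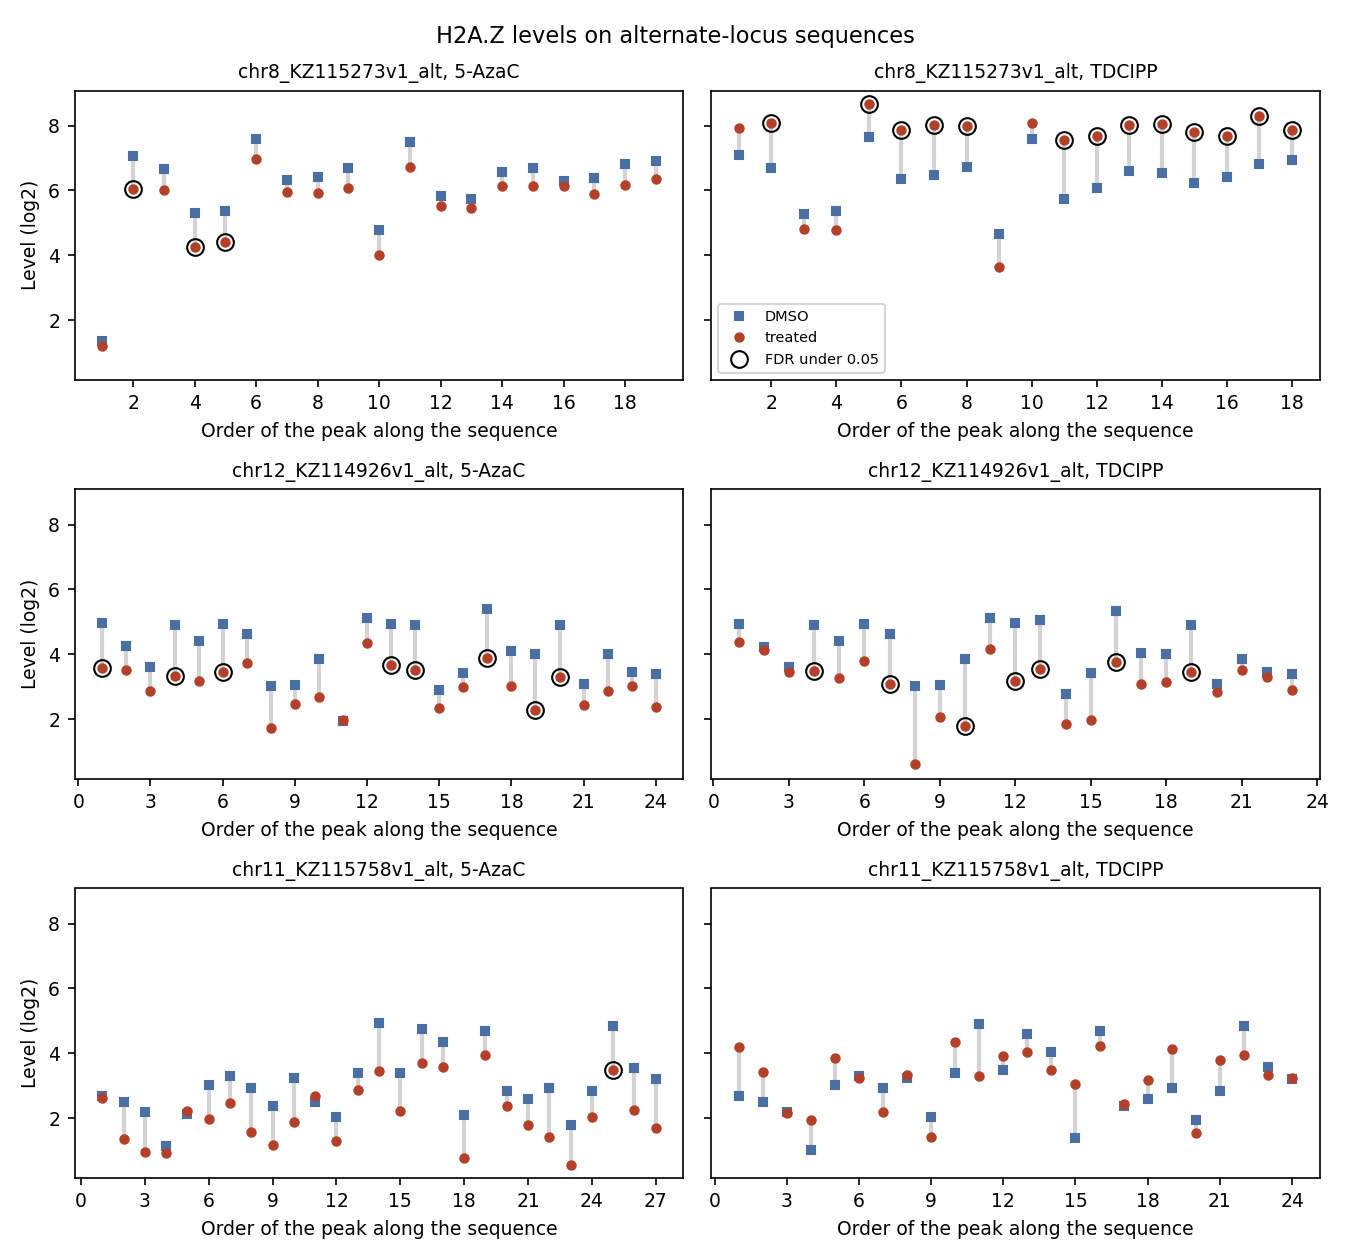
H2A.Z level (log2, vertical axis) in DMSO (blue squares) and treated embryos (red circles) at each peak, in order along 3 alternate-locus sequences, after 5-AzaC (left) and TDCIPP (right), with black rings at an FDR under 0.05. On chr8_KZ115273v1_alt 13 of 18 peaks were called higher after TDCIPP, on chr12_KZ114926v1_alt 8 and 7 peaks were called lower, and on chr11_KZ115758v1_alt 13 of 24 peaks lay above their DMSO level after TDCIPP.

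The strongest alternate-locus peak in DMSO was on chr20_KZ115604v1_alt, from 135516 to 137799. Its level was 10.34 in DMSO, 10.86 after 5-AzaC and 10.38 after TDCIPP. It was also the only higher call after 5-AzaC, with log2 change 0.52 and FDR 0.034 by the authors' deposited table, while for TDCIPP that table gave 0.03 and 0.935. The next, on chr11_KZ115349v1_alt from 257225 to 261393, had levels of 8.01 in DMSO, 8.57 after 5-AzaC and 8.05 after TDCIPP, with FDRs of 0.062 and 0.94 in the authors' deposited table. The other 3 of the 5 strongest lay on chr8_KZ115273v1_alt. Of these, the peak from 83331 to 85672 stood at 7.59 in DMSO and 6.97 after 5-AzaC (FDR 0.0757), and its TDCIPP counterpart, which ends at 85894, at 7.64 in DMSO and 8.68 after TDCIPP (FDR 0.0251 in the authors' deposited table).

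Among called peaks, the first 5 decreases after 5-AzaC by size ran from -2.55 to -2.31 in the authors' deposited table, at DMSO levels from 3.68 to 3.91. The first was on chr16_KZ115494v1_alt from 376384 to 377026, with levels of 3.68 in DMSO and 1.12 after 5-AzaC and FDR 0.00904 by the authors' deposited table. The others lay on chr10_KZ115322v1_alt, chr6_KZ115172v1_alt, chr11_KZ115341v1_alt and chr6_KZ114879v1_alt. The peak on chr10_KZ115322v1_alt from 441283 to 442096 had levels of 3.91 in DMSO and 1.39 after 5-AzaC. In the TDCIPP table the overlapping peak, from 441196 to 442194, stood at 4.02 in DMSO and 3.99 after TDCIPP, with a log2 change of -0.03 by the authors' deposited table. At the peak on chr6_KZ115172v1_alt from 11814 to 12484 the level was 3.68 in DMSO, 1.16 after 5-AzaC and 0.41 after TDCIPP, and the FDR for TDCIPP in the authors' deposited table was 1.

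Among called peaks, the first 5 decreases after TDCIPP ran from -3.90 to -3.38 in the authors' deposited table. A lower value of -3.98 stood at a peak on chr15_KZ114948v1_alt from 21555 to 22180, which the authors' deposited table gives an FDR of 1 and so was not called. The first called, on chr4_KZ114855v1_alt from 188821 to 189878, went from 4.07 in DMSO to 0.18 after TDCIPP, with FDR 0.00121 by the authors' deposited table. Its level after 5-AzaC was 2.74 (log2 change -1.34, FDR 0.0488 in the authors' deposited table). The others were on chr13_KZ115420v1_alt, chr23_KZ114985v1_alt, chr14_KZ114937v1_alt and chr18_KZ115546v1_alt, all of them at a TDCIPP level of 1.72 or less. A level of 0 stands for 1 normalised read.

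The 5 largest called increases after TDCIPP ran from 2.63 to 3.12 in the authors' deposited table, all at narrow peaks of 411 to 558 bp with DMSO levels from 1.25 to 2.85. On chr18_KZ114964v1_alt, from 60670 to 61206, the level was 2.85 in DMSO and 5.57 after TDCIPP, with FDR 0.001 by the authors' deposited table. The overlapping peak of the 5-AzaC table stood at 2.85 and 3.17. The largest of them, on chr8_KZ115274v1_alt from 141426 to 141984, went from 1.25 to 4.37 with FDR 0.00554 by the authors' deposited table, and no peak of the 5-AzaC table overlapped it. The other 3, on chr9_KZ115281v1_alt, chr23_KZ115675v1_alt and chr17_KZ115512v1_alt, had 5-AzaC levels of 1.85, 2.13 and 2.61 at overlapping peaks, against 4.53, 4.59 and 4.70 after TDCIPP. Peaks this weak in DMSO may have entered the peak set through the TDCIPP samples alone. Of the 73 higher calls on alternate loci after TDCIPP, 56 had a matched peak in the 5-AzaC table, as did all 159 lower calls. A match was found for 87.6% of all alternate-locus peaks of the TDCIPP table. The lower calls had a median DMSO level of 4.87 and both tables share the DMSO libraries. The counts for higher and lower calls can therefore not be compared.

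Peaks called alike for 5-AzaC and TDCIPP could only be lower, as the only higher call after 5-AzaC had a deposited FDR of 0.935 for TDCIPP. Among them, the 5 with the smallest FDRs had DMSO levels from 5.26 to 6.29. Lower calls were most frequent among strong peaks, so this choice favours high DMSO levels. The first lay on chr13_KZ114934v1_alt. The others were on chr10_KZ115324v1_alt from 212465 to 214136, with levels of 5.26 in DMSO, 3.42 after 5-AzaC and 3.04 after TDCIPP, and on chr9_KZ114903v1_alt from 194076 to 196582, with 6.07, 4.43 and 4.17. A further pair were on chr18_KZ115583v1_alt from 33050 to 35122, with 6.29, 5.00 and 4.81, and on chr14_KZ115441v1_alt from 222794 to 224016, with 5.87, 4.62 and 4.10. Their FDRs in the authors' deposited table ran up to 0.00486 for 5-AzaC and 0.00546 for TDCIPP. As the DMSO libraries are the same, both changes share the error of the DMSO level.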

How the data were processed

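CUT&Tag for H2A.Z was analysed from 2 deposited tables of consensus peaks. The submitters' processing notes name Bowtie2, Picard, MACS2, deepTools and DiffBind and the build GRCz11, with no settings; aligner settings, scaling and the test are not given in the sources used here. Levels per group and changes are on the log2 scale, and the deposited p-value and FDR stand beside them, per the file headers; the deposited change equals the treated minus the DMSO level to within 0.01. Read depth is unknown. Whether starts count from 0 or 1 is not stated, and coordinates are printed as the tables give them, on GRCz11. With group values only, no test across samples could be run. Members and lists were chosen with earlier results of these data known. Level and width classes are quantiles of alternate-locus peaks, each cell holding at least 43 assembled peaks. The computation was tested on simulated tables. Peaks of both tables were matched one to one by the best overlap of at least 1 bp. Named peaks are, per table, the 5 strongest in DMSO, the 5 most negative and 5 most positive calls, and the 5 called alike in both with the smallest larger FDR; named sequences and chromosomes have the most peaks or calls. Further chromosomes, the sequence and block medians and the first 10 kb were chosen after their values were seen. Alternatives covered the thresholds, the matching and the sequences left out. Python 3.11.15, pandas 2.3.3 and numpy 2.4.6 were used.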

Additional observations from a re-analysis of the deposited data

How the results depend on the processing

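No paired analysis was possible because the tables hold 1 value per group, and leaving out a replicate could not be run for the same reason. The planned comparisons with aligned counterparts on the parent chromosome, and with genes at the peaks, were not run because no genome or annotation of the build was used. Call counts moved with the FDR threshold: at 0.01 alternate-locus peaks gave 93 lower and 0 higher for 5-AzaC (4 higher at an unadjusted p under 0.05) and 34 and 18 for TDCIPP, and at 0.1 they gave 1021 and 2, and 285 and 133. A minimum log2 change of 1 left 0 of the higher calls for 5-AzaC. With Benjamini-Hochberg over all peaks, 5-AzaC had 415 lower calls and 1 higher, and TDCIPP had 119 and 59. No like count of all or assembled peaks was taken at the other FDR thresholds, the minimum change or Benjamini-Hochberg. Whether alternate-locus shares stayed above or below the background at those settings was therefore not tested. Above the median DMSO level, the median change was -0.96 and -0.63. The difference at like level and width was between -0.16 and -0.145 for 5-AzaC and between 0.095 and 0.15 for TDCIPP under the alternatives that kept a matching, and -0.11 and 0.18 without matching. Of these, the alternative with the same parent chromosome was matched in 4 classes of DMSO level and not on width. It gave -0.155 for 5-AzaC and 0.1 for TDCIPP. Leaving out each parent chromosome, leaving out chr8_KZ115273v1_alt and taking the median over sequences were added after seeing the data. The DMSO level was below that of assembled peaks by 0.17 to 0.29 in both tables, at like width and under its 3 alternatives, which were no matching, no chromosome 4 and the same parent chromosome. The cause of the moves was not tested. Leaving out single chromosomes gave -0.16 to -0.15 for 5-AzaC and 0.0975 to 0.11 for TDCIPP. Read depth is unknown, so its limit on weak peaks could not be given.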
